A study of Rattus norvegicus with 15 samples.

Results

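The nuclear-coded genes of the mitochondrial respiratory chain and ATP synthase were described in the livers of male Sprague-Dawley rats. Members were all genes of the deposited table whose symbol starts with Nduf, Uqcr, Atp5 or Cox4 to Cox8, together with Sdha, Sdhb, Sdhc and Sdhd. This rule used names only and no measured value, and it took in 91 of 21576 genes. By role, 34 are subunits of complex I, 4 of complex II, 8 of complex III and 15 of complex V. Complex IV has 10 members of the kind that liver or most tissues use, counting Ndufa4, which despite its name is a complex IV subunit, and 8 isoforms known mainly from other tissues such as muscle, heart or testis. A further 10 members are assembly factors or other non-subunit proteins that share the name stem (Ndufaf1 to Ndufaf7, Atp5sl, Atp5s and Cox7a2l), and 2 are symbols of likely gene copies (Ndufa10l1 and Cox7a2l2). Cox6b1, Ndufa1, Ndufa13, Ndufb1 and the mitochondrially coded subunits were not analysed here.

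The study asked what Zexie Decoction, a traditional Chinese herbal preparation, changes at the transcript level in rats made hyperlipidaemic by diet. RNA sequencing gave 15 liver libraries, 5 in each of 3 groups. ZXD rats had the lipid-raising diet for 4 weeks and then received the decoction by mouth at 2.2 g/kg per day for 4 more weeks. HFD rats had the same diet for 4 weeks and then saline for 4 more weeks. CON rats were kept on normal chow. The diet held 66% base forage, 16.7% sucrose, 8.3% yolk, 7% lard, 2% cholesterol, 0.3% sodium cholate and 0.2% propylthiouracil, so that ZXD and HFD rats alike also took in an antithyroid drug and a bile salt, which CON rats did not. The labels give 10 rats per group and do not say which rats, or how many, each library stands for. They also give no age, and a simvastatin group was not analysed here.

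Complexes I to IV of the inner mitochondrial membrane pass electrons from NADH and succinate to oxygen and pump protons as they do so, except complex II, which pumps none. Complex V, the ATP synthase, uses the proton gradient to make ATP. Hepatocytes are rich in mitochondria, and most subunits are coded in the nucleus. Transcription of these genes is known to involve the factors NRF-1, GABP (an ETS-family factor also called NRF-2) and YY1, the co-activator PGC-1α (Ppargc1a) and thyroid hormone.

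Upstream sequences of a few members are shown first. RefSeq promoter windows (build GRCr8, from 250 bases before to 50 bases after the annotated start, 300 bases in all) were matched for 79 of the 91 members, 64 by symbol and 15 by synonym. The letters GCGCANGC, a short form of the NRF-1 site, stood on either strand in 25 of these 79 windows (31.6%) and in 11.6% of the windows of 21851 protein-coding genes. For the YY1 letters ATGGCGG the shares were 15 of 79 (19.0%) and 6%, and for the ETS letters CCGGAAGT 7 of 79 (8.86%) and 4.77%. A window counts once however many matches it holds, overlapping ones included. Among complex IV members the NRF-1 letters were in none of 8 windows. Among complex I members they were in 12 of 31 and among complex V members in 6 of 14. A match of letters is a description of the window only.

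The 200 bases before the start are printed for 5 members, 5′ to 3′ on the gene's own strand. Sdha and Sdhb were chosen because these partner subunits differed in their values, Ndufs1 and Ndufv2 as core subunits of complex I, and Cox8a as a complex IV subunit with ETS letters. Capitals mark the searched letters on either strand. All 5 stretches hold a match, while those of other members, such as Sdhc and Sdhd, hold none. The stretch of Sdha is chr1:30764353-30764552 on the plus strand and has 2 NRF-1 matches. That of Sdhb is chr5:158547734-158547933 on the plus strand, with 1 NRF-1 match. Ndufs1 is shown from chr9:72073606-72073805 on the minus strand, with 1 ETS and 1 YY1 match. For Ndufv2 it is chr9:113157521-113157720 on the minus strand, with 1 NRF-1 match, and for Cox8a chr1:213833624-213833823 on the minus strand, with 2 ETS matches.
Sdha: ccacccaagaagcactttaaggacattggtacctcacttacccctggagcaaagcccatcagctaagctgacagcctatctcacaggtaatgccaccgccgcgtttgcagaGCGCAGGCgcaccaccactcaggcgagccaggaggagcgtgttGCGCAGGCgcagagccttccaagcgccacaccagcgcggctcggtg
Sdhb: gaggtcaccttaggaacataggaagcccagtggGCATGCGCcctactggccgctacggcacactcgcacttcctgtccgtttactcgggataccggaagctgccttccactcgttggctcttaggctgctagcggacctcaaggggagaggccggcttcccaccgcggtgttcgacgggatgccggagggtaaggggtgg
Ndufs1: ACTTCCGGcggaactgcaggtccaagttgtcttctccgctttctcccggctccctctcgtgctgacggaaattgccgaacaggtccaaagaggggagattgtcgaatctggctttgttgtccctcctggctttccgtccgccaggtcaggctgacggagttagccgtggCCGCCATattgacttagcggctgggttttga
Ndufv2: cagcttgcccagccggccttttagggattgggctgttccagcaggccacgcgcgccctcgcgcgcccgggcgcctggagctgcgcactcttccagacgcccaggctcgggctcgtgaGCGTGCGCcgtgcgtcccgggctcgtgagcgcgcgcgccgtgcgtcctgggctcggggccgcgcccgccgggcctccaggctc
Cox8a: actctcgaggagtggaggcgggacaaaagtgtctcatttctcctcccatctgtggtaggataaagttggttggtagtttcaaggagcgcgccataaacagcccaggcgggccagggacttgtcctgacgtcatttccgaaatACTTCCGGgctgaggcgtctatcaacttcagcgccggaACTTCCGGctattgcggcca
The shares of windows with NRF-1 letters were 26.3% (5 of 19) among the members that were lower in HFD than in CON livers by the TMM-scaled test described next and 34.6% (18 of 52) among tested members that were not called. For the ETS letters they were 21.1% (4 of 19) and 5.77% (3 of 52), and for the YY1 letters 15.8% (3 of 19) and 21.2% (11 of 52). These shares are given without a test.

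Totals ran from 12552449 to 14228052 counts per library. Counts were scaled in 2 ways, because the choice decides the direction of many values here. Library totals give each gene's share of all counts. TMM factors, which edgeR computes so that most genes do not change between libraries, were 1.01 to 1.28 in ZXD libraries, 1.07 to 1.13 in HFD libraries and 0.793 to 0.867 in CON libraries. All 3 comparisons came from 1 fit over the 15 libraries with edgeR's quasi-likelihood test, and a gene was called at a Benjamini-Hochberg adjusted p under 0.05 over all 13163 genes with enough counts. With library totals, the median log2 fold change of all these genes was 0.45 in ZXD versus CON and 0.44 in HFD versus CON. With TMM it was 0.03 and 0.02. CPM values below are TMM-scaled unless library totals are named. Values given with an SE are log2 fold changes of the fit, TMM-scaled unless another scale is named, with p-values from edgeR. In these bulk samples, fewer cells of a type and less RNA per cell cannot be told apart. The 6 hepatocyte markers (Alb, Apoa1, Ttr, Serpina1, Tf and Cps1) were all present and summed to 42906 to 92727 CPM in ZXD, 59479 to 93989 CPM in HFD and 144209 to 183615 CPM in CON livers, without overlap between either diet group and CON. The 14 macrophage and Kupffer cell markers summed to 867 to 6137 CPM in ZXD, 571 to 3670 CPM in HFD and 335 to 894 CPM in CON livers. Of T, B and NK cell markers, 7 summed to 7.87 to 81 CPM in ZXD, 8.66 to 43.8 CPM in HFD and 3.04 to 6.01 CPM in CON livers. The 4 cholangiocyte markers summed to 37 to 48.3 CPM in ZXD, 46.2 to 83 CPM in HFD and 16.1 to 25.9 CPM in CON livers, so both diet groups lay above CON. The 4 endothelial markers summed to 265 to 426 CPM in ZXD, 54.7 to 248 CPM in HFD and 52.9 to 263 CPM in CON livers, so every ZXD library lay above every HFD and CON library. Sums of 5 stellate cell markers overlapped between all groups, at 171 to 516 CPM in ZXD, 139 to 513 CPM in HFD and 186 to 388 CPM in CON livers. The part of these shifts in the results below was not tested.

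Of the 91 members, 82 had enough counts for the test. The 9 others were the 8 tissue isoforms of complex IV and Ndufs6, an accessory subunit of complex I with 98 counts over all 15 libraries. Cox7b2 and Cox8c were at 0 in every library, where a count of 0 allows up to 0.183 to 0.285 CPM in a library (3 counts, counting error only). Cox8b had 7 counts in all and was at 0 in 11 libraries. The muscle and heart forms Cox6a2 and Cox7a1 had 19 and 44 counts in all, against 14521 for the common form Cox6a1 and 2106 for Cox7a2. Cox4i2, known from lung, had 37 counts in all, against 30985 for Cox4i1. The complex IV forms read out in these livers were thus the common or liver ones in all 3 groups.

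Levels between genes were compared per length, as FPKM rescaled by TMM. Atp5b, the catalytic β subunit of complex V, stood highest, with 412 ± 78.3 FPKM in ZXD, 388 ± 39.8 in HFD and 540 ± 36.4 in CON livers (SD, n = 5 each). In CON livers its lowest library, 482 FPKM, was above the highest of the next gene, Atp5a1, at 308 FPKM. Atp5a1 codes for the α subunit and averaged 282 ± 21.7 FPKM in CON livers. Its range overlapped that of Cox4i1, at 254 ± 44.5 FPKM, so the order of these neighbours is within their spread. Of the assembly factors, all but Cox7a2l averaged 15.2 FPKM or less in CON livers. Some subunits were in that range too, such as Ndufab1 at 13.6 and Ndufb4 at 7.28 FPKM. Ndufaf7 had 2.83 ± 0.224 FPKM in ZXD, 2.12 ± 0.36 in HFD and 1.97 ± 0.144 in CON livers, the lowest level of any tested member in CON. Cox7a2l was the exception among the assembly factors, at 47.9 ± 2.97 FPKM in ZXD, 51.6 ± 6.6 in HFD and 50.3 ± 4.45 in CON livers.

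**Figure D1:**
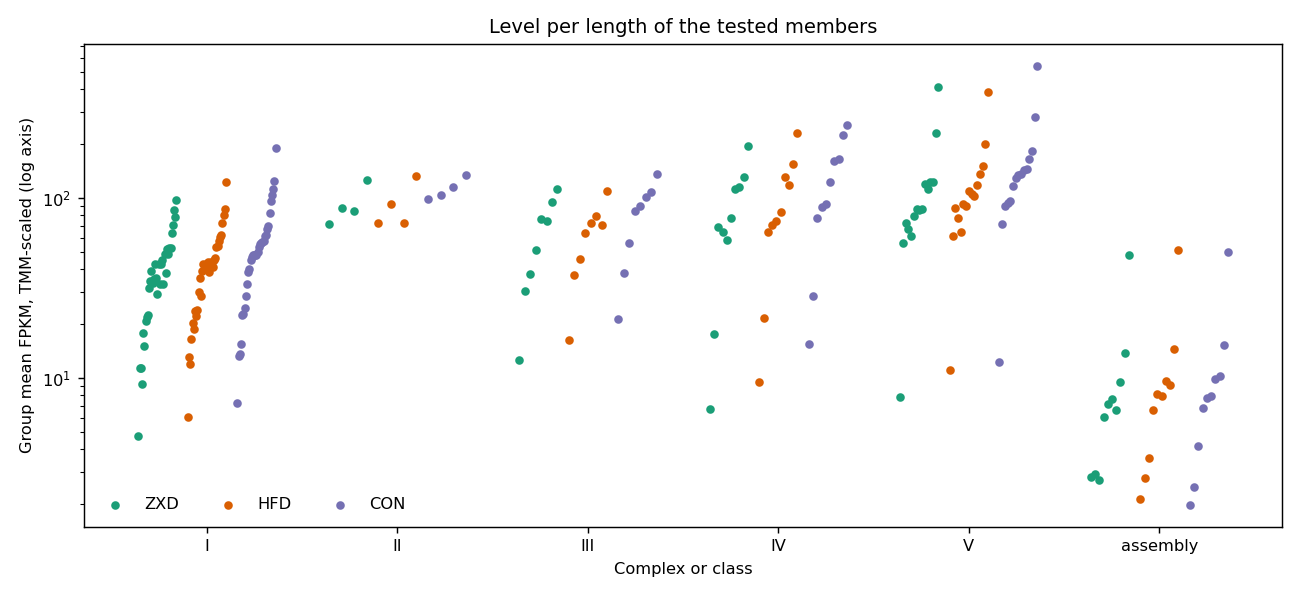
Each point is the group mean FPKM (TMM-scaled, log axis, n = 5 libraries) of a tested member, by complex, for ZXD, HFD and CON. Complex V holds the highest level, Atp5b at 412, 388 and 540 FPKM in ZXD, HFD and CON livers, and the assembly factors the lowest.

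By the summed TMM-scaled level, the members were lower in both diet groups than in CON livers. Their sum was 5225, 5560, 4993, 3763 and 4670 CPM in ZXD livers, 4969, 5171, 4897, 4989 and 4436 CPM in HFD livers, and 5537, 6661, 6698, 6246 and 6752 CPM in CON livers. No HFD library reached the CON range, while ZXD 2 lay just above the lowest CON library. As a share of all counts the picture was flat: 0.531% ± 0.0393 in ZXD, 0.538% ± 0.0263 in HFD and 0.525% ± 0.0505 in CON livers (SD, n = 5 each). ZXD 4 was the lowest of its group for the sum of each of complexes I to V by TMM. CON 1 and CON 4 were the lowest CON libraries for the same sums. Relative to its mean, complex IV spread most of complexes I to V within CON. Its sum ran from 568 to 818 CPM there, against 411 to 554 CPM in ZXD and 519.9 to 638 CPM in HFD livers. Assembly factors summed to 133 to 163 CPM in ZXD, 149 to 174 CPM in HFD and 152 to 177 CPM in CON livers, and the 3 ranges overlapped. Their share of counts was 0.0152% to 0.0175% in ZXD, 0.0165% to 0.0188% in HFD and 0.0125% to 0.0154% in CON livers, with all HFD libraries above all CON libraries.

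**Figure D2:**
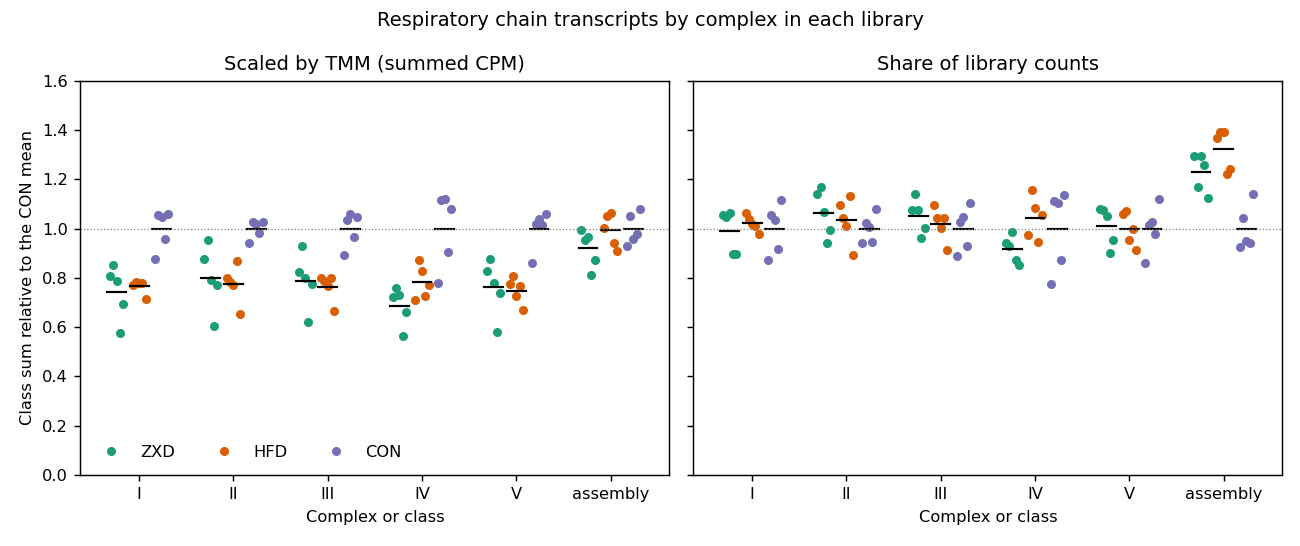
Summed level of the tested members of each complex or class in every library, divided by the CON mean of that class; the left panel uses TMM-scaled CPM and the right panel the share of library counts, and black bars are group means. On the left, ZXD and HFD libraries of complexes I to V lie mostly below CON; on the right the groups overlap, except that the assembly factors of all HFD libraries lie above all CON libraries.

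In HFD versus CON livers, 23 of the 82 tested members fell and none rose by TMM (28.0% lower, where 10.9% of all tested genes were lower and 10.0% higher). The median log2 fold change of the members was -0.31, against 0.02 for all tested genes, and 77 of 82 values were below 0. At an unadjusted p under 0.05, 39 of the 82 members were lower and 0 higher by edgeR. Of all 13163 genes, 4867 passed that threshold in either direction. DESeq2 and limma voom called 28 and 22 members lower and 0 higher, and 3711 and 2149 genes in all. All 23 are subunits: 12 of 33 in complex I, 2 of 4 in complex II, 1 of 8 in complex III, 3 of 10 in complex IV and 5 of 15 in complex V. None of the 10 assembly factors passed, and their median was -0.02. The 2 likely copies did not pass either, with a median of -0.39. Whether assembly factors and subunits differ was not tested. With library totals the same libraries gave 0 lower and 10 higher members, where 3.84% of all genes were lower and 40.9% higher. The members' median was then 0.10 against 0.44 for all genes, and none of the 10 was among the 23. The members' median was below that of all genes on both scales. A change of scale moves all genes of a comparison by about the same amount, so this is 1 result and not 2. Of the 23 TMM calls, 22 stayed below 0 with library totals, though none was called there. These 23 were picked for low TMM values, so their sign with library totals is no separate support. Over all 82 members, 77 values were below 0 by TMM and 24 with library totals. The count of 23 also rests on single libraries: it was 11 without CON 2, 9 without CON 3, 12 without CON 4, 11 without CON 5, 15 without HFD 2, 10 without HFD 5 and 29 without CON 1. Of the 23, 8 were called in all 15 fits that left out 1 library and also by DESeq2 and limma voom: Ndufs1, Ndufa8, Ndufv2, Sdha, Cox6c, Cox8a, Atp5l and Atp5f1.

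In complex I, core and accessory subunits alike were among the calls. Ndufs1, a core subunit that carries iron-sulfur clusters of the NADH-oxidising arm, had 92.6, 70.4, 60.3, 75.3 and 55.2 CPM in HFD livers and 105, 110.1, 105, 127 and 111 CPM in CON livers. All HFD libraries were below all CON libraries, and the log2 fold change was -0.66 (SE 0.14, adjusted p = 0.00622) by edgeR's quasi-likelihood test. With library totals it was -0.23 (SE 0.13, adjusted p = 0.153). Ndufv2, another iron-sulfur subunit of that arm, had 62.9, 60.7, 68.2, 57.6 and 58.8 CPM in HFD livers and 80, 80.2, 93.5, 88.6 and 95.9 CPM in CON livers, again without overlap, with a log2 fold change of -0.51 (SE 0.13, adjusted p = 0.0145). Ndufv1, which binds the flavin where NADH is oxidised, changed by -0.42 (SE 0.12, adjusted p = 0.0247) on the log2 scale by edgeR. Its call was lost when any of CON 2 to CON 5, HFD 2 or HFD 5 was left out. The core subunits Ndufs3, Ndufs7 and Ndufs8 did not pass, with log2 fold changes of -0.18 (SE 0.15, adjusted p = 0.409), -0.27 (SE 0.14, adjusted p = 0.166) and -0.17 (SE 0.12, adjusted p = 0.334) by edgeR.

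Of 26 tested accessory subunits of complex I, 8 fell. Ndufa8, on the intermembrane space side of the complex, had the smallest p of all members, with 39.8, 35, 36.1, 34.8 and 42.9 CPM in HFD livers and 53.5, 56.2, 61.2, 64.1 and 59.8 CPM in CON livers. The groups did not overlap, and the log2 fold change was -0.64 (SE 0.10, adjusted p = 0.000887) by edgeR. With library totals it was -0.22 (SE 0.10, adjusted p = 0.0779). Ndufb11, a membrane-arm subunit whose gene lies on chromosome X in RefSeq, changed by -0.45 (SE 0.11, adjusted p = 0.014), a call lost without CON 2 or CON 3. Ndufs4, an accessory subunit known from inherited complex I deficiency in humans, was the only complex I member called with library totals, at 0.40 (SE 0.14, adjusted p = 0.0343). On that scale 40.9% of all tested genes were higher.

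Within complex II the values differed by subunit. Sdha, the flavoprotein that oxidises succinate, had 174, 161, 153, 213 and 121 CPM in HFD livers and 268, 247, 265, 266 and 261 CPM in CON livers, and every HFD library was below every CON library. Its log2 fold change was -0.67 (SE 0.17, adjusted p = 0.0124) by TMM and -0.25 (SE 0.14, adjusted p = 0.145) with library totals by edgeR. Sdhb, the iron-sulfur partner of Sdha, had 129, 125, 128, 138 and 121 CPM in HFD livers and 123, 136, 136, 115 and 137 CPM in CON livers, with overlapping groups and a log2 fold change of -0.012 (SE 0.11, adjusted p = 0.949). With library totals, where 40.9% of all tested genes were higher, Sdhb rose by 0.40 (SE 0.10, adjusted p = 0.00612). Within a library, the log2 ratio of Sdhb to Sdha counts does not depend on the scaling. It averaged -0.33 ± 0.23 in HFD and -1.02 ± 0.15 in CON livers (SD, n = 5 each), with no overlap. This pair was 1 of 8 chosen after the values were seen, so its difference of 0.68 is given without a test. Of the other pairs, Atp5g3 to Atp5g1 and Cox4i1 to Cox6c also had no overlap between HFD and CON livers, and the rest overlapped. Of the membrane anchors, Sdhd fell by TMM, at -0.44 (SE 0.12, adjusted p = 0.0214), a call lost without CON 2, CON 3, CON 5 or HFD 5. Sdhc, the other anchor, was at -0.15 (SE 0.11, adjusted p = 0.354) by TMM and rose with library totals, at 0.27 (SE 0.10, adjusted p = 0.0412).

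Complex III gave 1 call. Uqcrc2, a core protein with no redox centre, had 165, 112, 121, 167 and 81.6 CPM in HFD livers and 199, 188, 191, 213 and 195 CPM in CON livers, and HFD 2, HFD 3 and HFD 5 were far below the others. Its log2 fold change was -0.61 (SE 0.18, adjusted p = 0.0295) by edgeR, and the call was lost when any of CON 2 to CON 5, HFD 2, HFD 3 or HFD 5 was left out. The other core protein, Uqcrc1, was at -0.31 (SE 0.12, adjusted p = 0.0677), and the Rieske iron-sulfur protein Uqcrfs1 at -0.32 (SE 0.11, adjusted p = 0.0593); both passed once ZXD 4 was left out of the shared fit. Uqcrb, an accessory subunit near the quinone site, rose with library totals, at 0.38 (SE 0.14, adjusted p = 0.0396), where 40.9% of all tested genes were higher.

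In complex IV, Cox6c, a small membrane-spanning subunit, had 35, 43.1, 39.4, 29.5 and 41.6 CPM in HFD livers and 48.6, 56.5, 56.8, 59.3 and 52.4 CPM in CON livers, without overlap, and a log2 fold change of -0.54 (SE 0.12, adjusted p = 0.0077). Cox8a, the common form of another small subunit, had 56.4, 66.9, 61.1, 50.1 and 56.6 CPM in HFD livers and 64.2, 93.8, 90.8, 71.2 and 89.2 CPM in CON livers and a log2 fold change of -0.49 (SE 0.12, adjusted p = 0.0136); its groups overlapped only through CON 1. Ndufa4 changed by -0.52 (SE 0.16, adjusted p = 0.0325), a call lost without HFD 1, HFD 5 or any of CON 2 to CON 5. Cox4i1, the larger regulatory subunit and the complex IV member with the highest level per length, did not pass, at -0.15 (SE 0.15, adjusted p = 0.478) with 159 ± 13.6 CPM in HFD livers and 177 ± 31 CPM in CON livers (SD, n = 5 each). Cox5a and Cox5b, the matrix-side subunits, were at -0.27 (SE 0.15, adjusted p = 0.187) and -0.32 (SE 0.14, adjusted p = 0.102). No complex IV member was called with library totals.

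In complex V, both subunits of the catalytic head fell by TMM. Atp5a1 was at -0.50 (SE 0.14, adjusted p = 0.019), a call lost without CON 4 or HFD 5, and Atp5b at -0.48 (SE 0.15, adjusted p = 0.0357), lost without HFD 2, HFD 3, HFD 5 or any of CON 2 to CON 5. Atp5l, subunit g of the membrane part, had 37.4, 49.6, 45.3, 44.4 and 39.9 CPM in HFD livers and 56.3, 72.1, 68.3, 52.9 and 60.1 CPM in CON livers without overlap and a log2 fold change of -0.52 (SE 0.11, adjusted p = 0.00519). Atp5f1, subunit b of the peripheral stalk, had 138, 133, 120.1, 125 and 98.6 CPM in HFD livers and 158, 173, 180.4, 174 and 170.1 CPM in CON livers, also without overlap, with -0.48 (SE 0.11, adjusted p = 0.0065). The 3 genes Atp5g1, Atp5g2 and Atp5g3 code for the same mature c subunit of the rotating ring, with different import signals. Atp5g1 had 37.2, 43.8, 34.3, 29.8 and 36.3 CPM in HFD livers and 38.9, 48.3, 66.8, 52.5 and 64.1 CPM in CON livers and changed by -0.58 (SE 0.17, adjusted p = 0.0286), a call lost without any of CON 3 to CON 5 or HFD 3 to HFD 5. Atp5g3 had 66.6, 80.9, 72.7, 56.2 and 58.4 CPM in HFD livers and 54.4, 75, 74.3, 66.5 and 74.7 CPM in CON livers, at -0.043 (SE 0.13, adjusted p = 0.828) by TMM and 0.37 (SE 0.12, adjusted p = 0.0228) with library totals. The log2 ratio of Atp5g3 to Atp5g1 averaged 0.88 ± 0.14 in HFD and 0.37 ± 0.20 in CON livers (SD, n = 5 each) without overlap, a pair likewise chosen after the values were seen. The ratios of Atp5g3 to Atp5g2 and of Atp5g2 to Atp5g1 overlapped between these groups. Atp5g2 did not pass on either scale.

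Among assembly factors, Cox7a2l, which helps join complexes III and IV into supercomplexes, had 59, 73.4, 69.9, 53 and 64.9 CPM in HFD livers and 58.9, 70.9, 57.9, 59.2 and 65 CPM in CON livers and a log2 fold change of 0.038 (SE 0.10, adjusted p = 0.814) by TMM. With library totals it rose, at 0.46 (SE 0.12, adjusted p = 0.00676). Ndufaf7, a methyltransferase needed for complex I assembly, was at 0.11 (SE 0.16, adjusted p = 0.646) by TMM and 0.52 (SE 0.17, adjusted p = 0.0227) with library totals. Atp5s, Atp5sl and Ndufaf6 also rose with library totals, so that 5 of the 10 were called there with a class median of 0.39, close to the 0.44 of all tested genes. Members named for a call on a scale other than TMM were chosen after their values were seen.

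**Figure D3:**
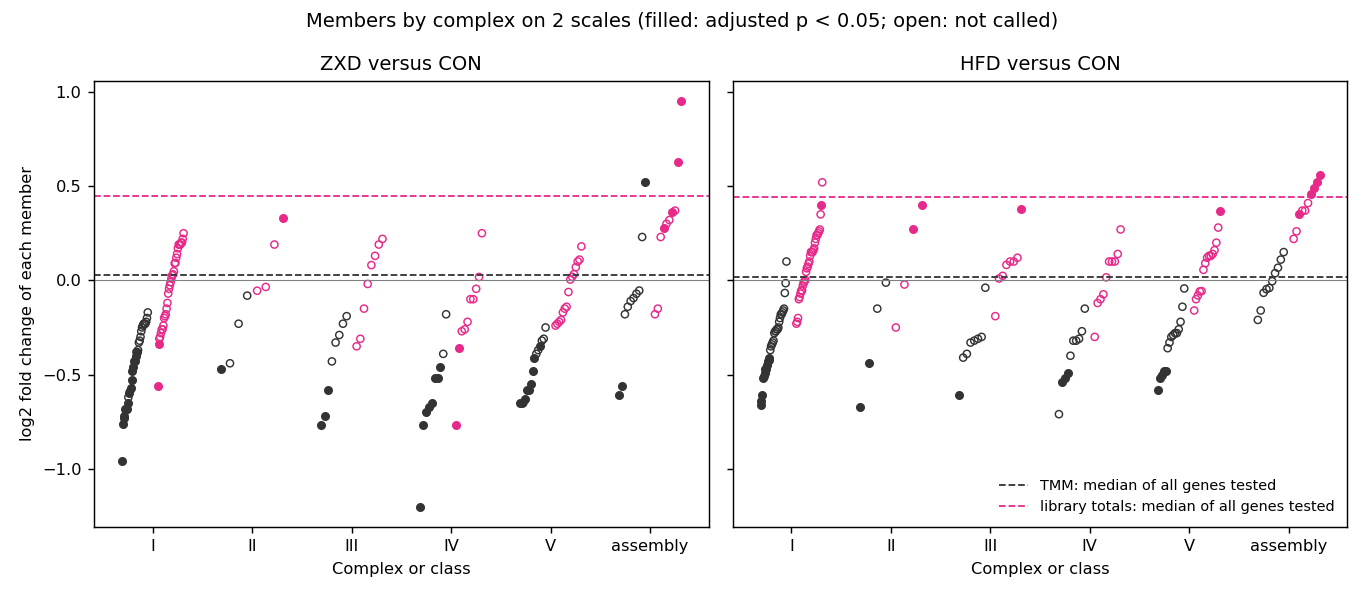
Log2 fold change of every tested member but the 2 likely copies in ZXD versus CON and in HFD versus CON, by complex, with TMM (dark) and with library totals (pink); filled points had an adjusted p under 0.05 by edgeR and dashed lines mark the median of all tested genes on each scale. In HFD versus CON the 23 filled dark points are all below 0 and the 10 filled pink points all above it; the members lie mostly below the dashed line of their scale.

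**Figure D4:**
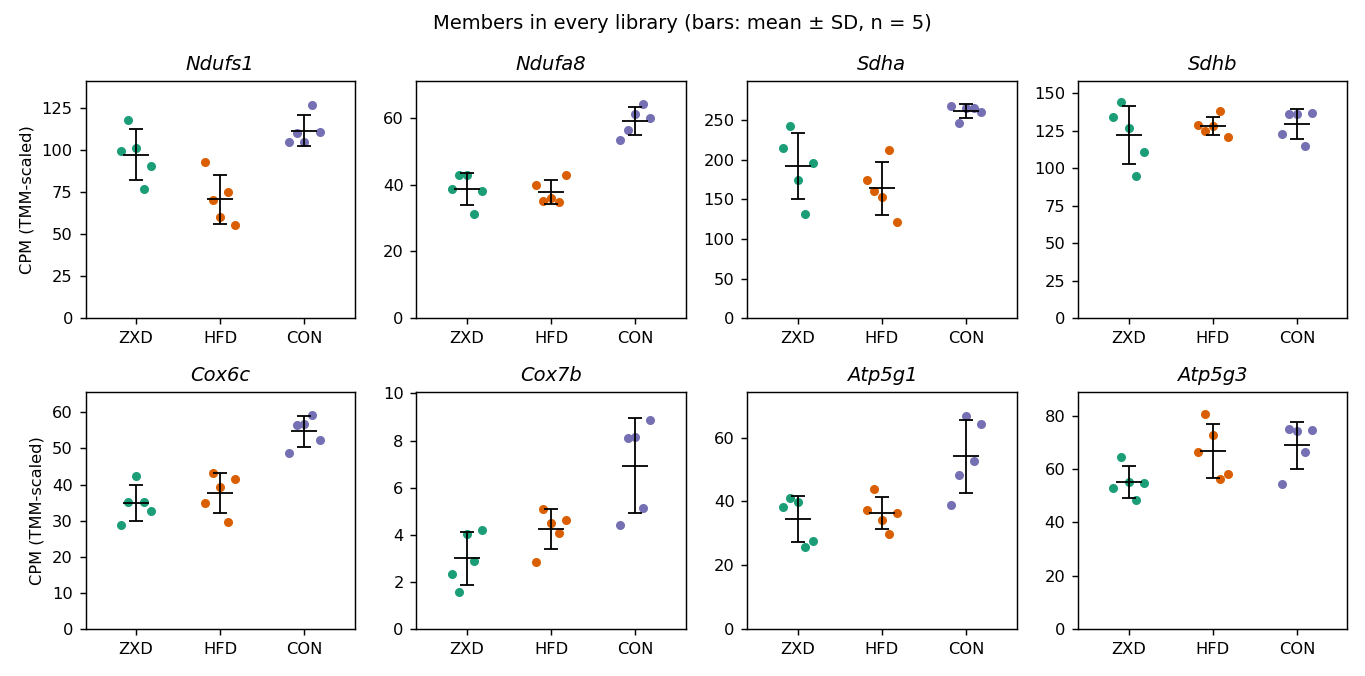
TMM-scaled CPM of 8 members in each ZXD, HFD and CON library, with the mean and SD of 5 libraries. Sdhb and Atp5g3 have similar HFD and CON means (128 and 129 CPM, 66.9 and 69 CPM), while for Ndufs1, Ndufa8, Sdha and Cox6c all HFD libraries lie below all CON libraries.

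In ZXD versus CON livers, 40 of 82 tested members fell and 1 rose by TMM (48.8% lower, where 14.8% of all tested genes were lower and 17.9% higher). The members' median log2 fold change was -0.43, against 0.03 for all tested genes, and 80 of 82 values were below 0. By complex, 17 of 33 fell in complex I (median -0.43), 1 of 4 in complex II (-0.33), 3 of 8 in complex III (-0.38), 8 of 10 in complex IV (-0.59) and 9 of 15 in complex V (-0.48). Of the 10 assembly factors 2 fell and 1 rose, with a median of -0.10, and neither of the 2 likely copies passed. With library totals 4 members were lower and 5 higher, where 4.77% of all genes were lower and 45.9% higher, and the members' median was -0.01 against 0.45 for all genes. The 4 members lower on both scales were Ndufb11, Ndufa6, Ndufa4 and Cox7b, of which Ndufa6 is named here after its value was seen. As a share of the 82 tested members, these 4 are close to the 4.77% of all genes lower with library totals. Of the 40 TMM calls, 36 stayed below 0 with library totals, which again is no separate support, since they were picked for low TMM values. Of the 41 TMM calls, 27 held in all 15 fits that left out 1 library and by DESeq2 and limma voom. These 2 comparisons share the CON libraries and are not independent of each other.

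Of 26 tested accessory subunits of complex I, 14 fell. Ndufb11 had the smallest p of all members, with 29.8, 31.9, 29.4, 24.8 and 25.5 CPM in ZXD livers and 39.7, 54.5, 53.9, 42.9 and 48.6 CPM in CON livers. Every ZXD library was below every CON library, at -0.76 (SE 0.11, adjusted p = 0.000478) by TMM and -0.34 (SE 0.11, adjusted p = 0.0186) with library totals by edgeR. Ndufa8 was at -0.60 (SE 0.10, adjusted p = 0.00121) and Ndufb7, an accessory subunit of the membrane arm, at -0.68 (SE 0.13, adjusted p = 0.00234), both without overlap of the groups. Ndufa6, an accessory subunit of the LYR-motif family, had 64.4, 62.8, 48.6, 28.3 and 45.9 CPM in ZXD livers and 77.3, 122, 104, 74.4 and 108 CPM in CON livers, a log2 fold change of -0.96 (SE 0.20, adjusted p = 0.00403) by TMM and -0.56 (SE 0.18, adjusted p = 0.019) with library totals. Among the core subunits Ndufv2 fell, at -0.53 (SE 0.13, adjusted p = 0.00751). Ndufs7, which carries the last iron-sulfur cluster before quinone, was at -0.40 (SE 0.14, adjusted p = 0.0357), a call lost without CON 2, CON 3, CON 5, ZXD 4 or ZXD 5. Ndufs1 did not pass: it had 99.5, 118, 101, 77 and 90.5 CPM in ZXD livers and 105, 110.1, 105, 127 and 111 CPM in CON livers, with overlapping groups and a log2 fold change of -0.20 (SE 0.14, adjusted p = 0.308). Ndufv1, Ndufs3 and Ndufs8 were at -0.32 (SE 0.12, adjusted p = 0.0522), -0.22 (SE 0.15, adjusted p = 0.282) and -0.23 (SE 0.12, adjusted p = 0.165); Ndufv1 passed without CON 1 or ZXD 2.

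In complex II, Sdhd fell, at -0.47 (SE 0.12, adjusted p = 0.01), with 94, 101, 83.4, 73.9 and 81.3 CPM in ZXD livers and 101, 131, 127, 115 and 128 CPM in CON livers and no overlap. Sdha was at -0.44 (SE 0.17, adjusted p = 0.0522), with 215, 243, 175, 132 and 196 CPM in ZXD livers and 268, 247, 265, 266 and 261 CPM in CON livers and no overlap, and passed once HFD 4, HFD 5 or ZXD 2 was left out. Sdhb, at -0.081 (SE 0.11, adjusted p = 0.623) by TMM, rose with library totals, at 0.33 (SE 0.10, adjusted p = 0.013), where 45.9% of all tested genes were higher. The log2 ratio of Sdhb to Sdha averaged -0.64 ± 0.16 in ZXD and -1.02 ± 0.15 in CON livers (SD, n = 5 each), again without overlap. The other chosen pairs overlapped between ZXD and CON livers.

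In complex III the calls fell on small accessory subunits. Uqcrq had 80.9, 88.6, 84.2, 59.4 and 68.6 CPM in ZXD livers and 98.8, 136, 143, 112 and 138 CPM in CON livers without overlap and a log2 fold change of -0.72 (SE 0.14, adjusted p = 0.00278). Uqcr11 was at -0.77 (SE 0.22, adjusted p = 0.0155) with overlapping groups, and Uqcrh, the hinge protein near cytochrome c1, at -0.58 (SE 0.18, adjusted p = 0.0249), a call lost without CON 2, CON 3, CON 5 or ZXD 5. The larger subunits Uqcrc1, Uqcrc2 and Uqcrfs1 did not pass, at -0.23 (SE 0.12, adjusted p = 0.148), -0.19 (SE 0.18, adjusted p = 0.44) and -0.29 (SE 0.11, adjusted p = 0.0667); Uqcrfs1 passed without ZXD 2.

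Complex IV had the lowest class median. Its tested members were all short, at 448 to 785 bases, and in this comparison values ran with gene length, as given below. The part of length in this median was not tested. Cox6c had 28.7, 35.2, 42.3, 35.2 and 32.7 CPM in ZXD livers and 48.6, 56.5, 56.8, 59.3 and 52.4 CPM in CON livers without overlap, at -0.65 (SE 0.12, adjusted p = 0.00205). Ndufa4 had 117, 125, 107, 69.1 and 95 CPM in ZXD livers and 128, 196, 190.2, 179.7 and 178 CPM in CON livers, also without overlap, at -0.77 (SE 0.16, adjusted p = 0.00358) by TMM and -0.36 (SE 0.13, adjusted p = 0.0374) with library totals. Cox7b, a small subunit near the interface with other complexes, had 2.34, 1.56, 4.05, 2.87 and 4.2 CPM in ZXD livers and 4.4, 8.12, 8.17, 5.14 and 8.86 CPM in CON livers. Its log2 fold change was the largest of the complex, -1.20 (SE 0.29, adjusted p = 0.00708) by TMM and -0.77 (SE 0.30, adjusted p = 0.0431) with library totals. Cox7c and Cox6a1 fell too, at -0.67 (SE 0.16, adjusted p = 0.00594) and -0.52 (SE 0.13, adjusted p = 0.00809). Cox7a2 was at -0.70 (SE 0.22, adjusted p = 0.0235), a call lost without CON 2, CON 3, ZXD 4 or ZXD 5, and Cox5b at -0.46 (SE 0.14, adjusted p = 0.0184), lost without ZXD 4. Cox8a was at -0.52 (SE 0.12, adjusted p = 0.0066) without overlap. Cox4i1 and Cox5a did not pass, at -0.39 (SE 0.15, adjusted p = 0.0505) and -0.18 (SE 0.15, adjusted p = 0.36); Cox4i1 passed without CON 1, CON 4 or ZXD 2.

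In complex V, Atp5l had 37.2, 44.2, 42.6, 43.9 and 39.5 CPM in ZXD livers and 56.3, 72.1, 68.3, 52.9 and 60.1 CPM in CON livers without overlap and fell, at -0.58 (SE 0.11, adjusted p = 0.00216). All 3 genes of the c ring had values below 0 by TMM, while Atp5g3 was above 0 with library totals, at 0.10 (SE 0.12, adjusted p = 0.517): Atp5g2 was at -0.63 (SE 0.12, adjusted p = 0.00231) without overlap, Atp5g1 at -0.65 (SE 0.17, adjusted p = 0.0111) with overlap, and Atp5g3, which did not pass, at -0.32 (SE 0.13, adjusted p = 0.0627). Atp5g3 passed without CON 1 or ZXD 2. Atp5e, the ε subunit of the central stalk, had 29.2, 28.5, 36, 35.1 and 31.9 CPM in ZXD livers and 38.9, 59.8, 59.7, 41.1 and 52 CPM in CON livers without overlap, at -0.65 (SE 0.16, adjusted p = 0.00722). The catalytic subunits Atp5a1 and Atp5b did not pass, at -0.31 (SE 0.14, adjusted p = 0.0944) and -0.39 (SE 0.15, adjusted p = 0.056); Atp5b passed without ZXD 2. Atp5f1 was at -0.25 (SE 0.11, adjusted p = 0.0841) and passed without ZXD 2. No complex V member was called with library totals.

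Ndufaf7 was the 1 member that rose by TMM, with 6.61, 6.47, 7.34, 7.14 and 6.02 CPM in ZXD livers and 4.67, 4.28, 5.23, 4.61 and 4.6 CPM in CON livers and no overlap. Its log2 fold change was 0.52 (SE 0.16, adjusted p = 0.0194) by TMM and 0.95 (SE 0.17, adjusted p = 0.000748) with library totals by edgeR, and the TMM call was lost without ZXD 3. Ndufaf4 and Ndufaf5, other complex I assembly factors, fell by TMM, at -0.56 (SE 0.20, adjusted p = 0.0379) and -0.61 (SE 0.20, adjusted p = 0.0332). The call for Ndufaf4 was lost without CON 2, CON 3, CON 5 or any of ZXD 2 to ZXD 5, and that for Ndufaf5 without ZXD 1, ZXD 3, ZXD 4 or any of CON 2 to CON 5. With library totals Ndufaf7, Cox7a2l, Atp5s and Atp5sl rose and none of the 10 fell. On that scale 45.9% of all tested genes were higher and 4.77% lower.

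In ZXD versus HFD livers, which share the diet, no member was called on any scale by edgeR's quasi-likelihood test, nor was any of the 13163 genes (0 of all tested genes, 0%). The members' median log2 fold change was -0.13, against 0.02 for all genes, on the TMM scale, and -0.13 against 0.03 with library totals. At an unadjusted p under 0.05 there were 12 members, 8 of them lower, and 2167 genes in all; limma voom gave 0 calls and DESeq2 348 genes, among them 1 member. That member was Ndufa3, an accessory subunit of complex I, with 4.4, 4.37, 3.28, 3.05 and 4.78 CPM in ZXD livers and 5.11, 8.52, 6.65, 5.59 and 9.42 CPM in HFD livers and no overlap. Its log2 fold change was -0.83 (SE 0.22, adjusted p = 0.155) by edgeR, against an adjusted p of 0.0189 by DESeq2. The other members with the smallest p were Ndufs1, at 0.46 (SE 0.14, adjusted p = 0.18), Atp5g2, at -0.36 (SE 0.12, adjusted p = 0.196), Ndufa7, at -0.45 (SE 0.15, adjusted p = 0.196), and Ndufb11, at -0.32 (SE 0.11, adjusted p = 0.21), none of which passed. Ndufs1 had 99.5, 118, 101, 77 and 90.5 CPM in ZXD livers and 92.6, 70.4, 60.3, 75.3 and 55.2 CPM in HFD livers. The ranges overlapped through ZXD 4, ZXD 5 and HFD 1. Atp5g2 had 61.7, 60.9, 54, 42.8 and 47.7 CPM in ZXD livers and 65.2, 75.2, 70.6, 65.2 and 66 CPM in HFD livers, and all ZXD libraries were below all HFD libraries. Uqcrc2 was at 0.42 (SE 0.18, adjusted p = 0.274) and Ndufaf7 at 0.42 (SE 0.15, adjusted p = 0.213). The endothelial marker sums, 265 to 426 CPM in ZXD and 54.7 to 248 CPM in HFD livers, did not overlap, and their part in these values was not tested.

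A scale that sets the members against each other takes their own summed counts as the library size, and so removes any shift they share. In HFD versus CON, 5 members rose and 0 fell on it (30.7% of all tested genes higher and 3.97% lower): Sdhb, at 0.37 (SE 0.09, adjusted p = 0.00806), Atp5g3, at 0.34 (SE 0.11, adjusted p = 0.0252), Uqcrb, at 0.35 (SE 0.12, adjusted p = 0.0403), Cox7a2l, at 0.42 (SE 0.13, adjusted p = 0.0212), and Atp5sl, at 0.32 (SE 0.11, adjusted p = 0.042), all by edgeR. In ZXD versus CON, 5 rose and 5 fell (40.4% of all genes higher and 4.98% lower). Ndufaf7 was highest, at 0.94 (SE 0.19, adjusted p = 0.00243), and the others were Atp5s, Cox7a2l, Sdhb and Ndufa9. The 5 lower ones were Ndufa6, at -0.58 (SE 0.15, adjusted p = 0.00679), Ndufa4, at -0.38 (SE 0.11, adjusted p = 0.0106), Ndufb11, at -0.35 (SE 0.11, adjusted p = 0.0179), Uqcrq and Ndufb9. In ZXD versus HFD there were 0 calls. This scale was added after the data had been seen, as were the members named from it.

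The values also ran with gene length. Of 50 tested members under 1000 bases, 34 fell in ZXD versus CON, and of 32 longer ones 6 did. Among all tested genes the shares lower were 21.1% of 1202 short and 14.1% of 11961 longer genes. In HFD versus CON the members' shares were 28.0% and 28.1%. Over the 82 members, Spearman's rho of length with log2 fold change was 0.56 in ZXD versus CON, 0.53 in ZXD versus HFD and 0.10 in HFD versus CON; over all 13163 genes it was 0.10, 0.21 and -0.04. These are correlations across genes of the same libraries, which are not independent replicates. Per library, the median level of all tested short genes minus that of longer genes, members left out and each gene centred on its mean log2 CPM, was -0.16 to 0.01 in ZXD, -0.11 to 0.23 in HFD and -0.11 to 0.16 in CON libraries. CON 1, CON 4, HFD 1 and HFD 4 were below 0 with 4 of the 5 ZXD libraries. With this difference as a covariate in the edgeR fit, 29 members were lower in ZXD versus CON and 36 in HFD versus CON, and the members' median in ZXD versus HFD was 0.02 instead of -0.13. The difference comes from the expression values of the same libraries and is partly confounded with group. The covariate can therefore take up a group difference too. The share of all tested genes called in the covariate fit is not given here, so its counts cannot be read as particular to the members. The part of length in the results was not tested.

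**Figure D5:**
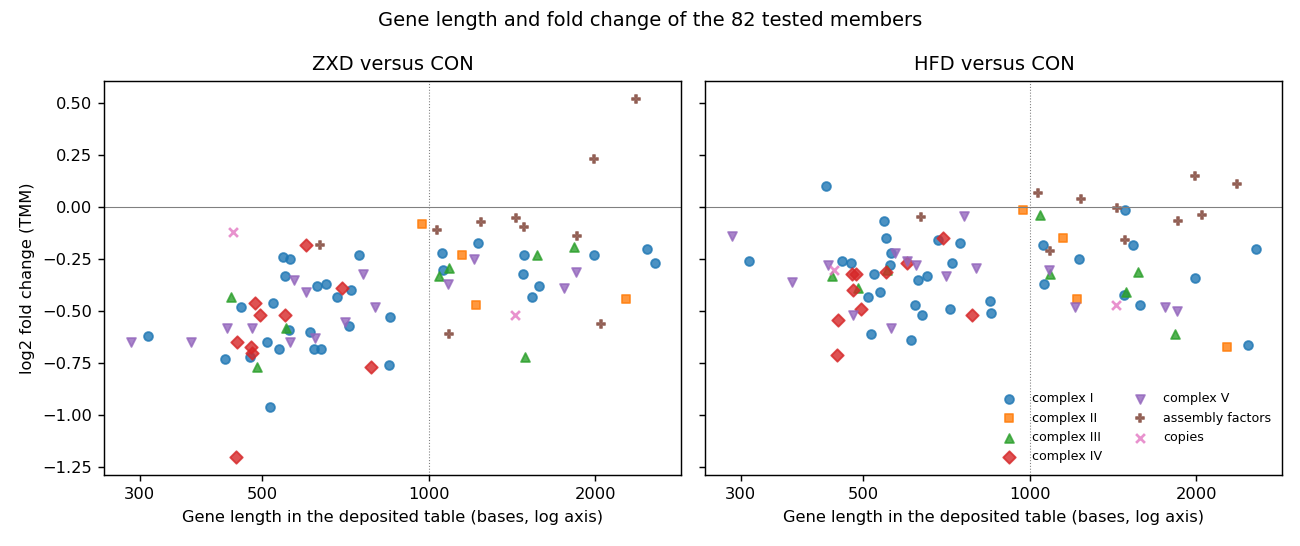
Gene length in the deposited table (bases, log axis, dotted line at 1000 bases) against the TMM-scaled log2 fold change of the 82 tested members in ZXD versus CON and in HFD versus CON, with a symbol for each class. In ZXD versus CON the members under 1000 bases lie lower than the longer ones (Spearman's rho 0.56), which is less visible in HFD versus CON (0.10).

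Other genes of mitochondrial energy metabolism were taken from lists written with earlier results known. Their counts stand against the shares of all tested genes by TMM, 10.9% lower and 10.0% higher in HFD versus CON and 14.8% lower and 17.9% higher in ZXD versus CON. Of 47 assembly factors outside the name rule, 1 rose and 4 fell (8.51% lower) in HFD versus CON, and 1 rose and 12 fell (25.5% lower) in ZXD versus CON, by TMM. Of 73 mitochondrial ribosomal proteins, 2 rose and 5 fell (6.85% lower) in HFD versus CON, and 0 rose and 19 fell (26% lower) in ZXD versus CON. Their medians were -0.12 in HFD versus CON and -0.23 in ZXD versus CON. Of 82 cytosolic ribosomal proteins, also short genes, 0 rose and 1 fell (1.22% lower) in HFD versus CON, and 0 rose and 6 fell (7.32% lower) in ZXD versus CON, with medians of 0.14 and -0.10. With library totals, where 40.9% of all genes were higher in HFD versus CON, the shares higher were 25.5% of the assembly factors, 41.1% of the mitochondrial and 79.3% of the cytosolic ribosomal proteins. In ZXD versus CON, where 45.9% of all genes were higher, they were 19.1%, 28.8% and 26.8%, all below that share. Of 11 citrate cycle genes 2 fell in each of these comparisons and 0 rose: Mdh2, malate dehydrogenase, at -0.56 (SE 0.13, adjusted p = 0.0101) in HFD versus CON, and Suclg2, a subunit of succinyl-CoA ligase, at -0.61 (SE 0.17, adjusted p = 0.0199), a call lost without CON 2 or HFD 5. Cyc1, cytochrome c1 of complex III, whose name lies outside the rule, was at -0.36 (SE 0.12, adjusted p = 0.0278) in ZXD versus CON and -0.39 (SE 0.12, adjusted p = 0.0295) in HFD versus CON by TMM. The first call was lost without CON 5 or ZXD 4, and the second without HFD 5 or any of CON 2 to CON 5. With library totals its sign was reversed, at 0.056 and 0.023. Of 11 coenzyme Q synthesis genes, 1 rose and 3 fell in HFD versus CON, and 1 rose and 4 fell in ZXD versus CON, or 27.3% and 36.4% lower. Of 13 electron entry and uncoupling genes, 0 rose and 2 fell, and 2 rose and 1 fell, or 15.4% and 7.69% lower. Of 20 outer membrane and import genes, 1 rose and 1 fell, and 1 rose and 5 fell, or 5% and 25% lower.

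Regulators of mitochondrial biogenesis did not share 1 direction by TMM. Of 22 tested, 3 rose and 4 fell in HFD versus CON by TMM, and 3 rose and 6 fell in ZXD versus CON, which is 18.2% and 27.3% lower and 13.6% higher in each. With library totals 10 (45.5%) and 9 (40.9%) rose and 0 fell, close to the 40.9% and 45.9% of all genes. Tfam, which packs and transcribes mitochondrial DNA, averaged 28 ± 4.68 CPM in ZXD, 29.8 ± 4.44 in HFD and 41.1 ± 3.81 in CON livers (SD, n = 5 each). Its log2 fold change by edgeR was -0.55 (SE 0.13, adjusted p = 0.00705) in ZXD versus CON and -0.46 (SE 0.13, adjusted p = 0.0236) in HFD versus CON, the second call being lost without HFD 2, HFD 5 or any of CON 2 to CON 5. Ssbp1, the mitochondrial single-stranded DNA-binding protein, rose, at 0.41 (SE 0.14, adjusted p = 0.0408) and 0.63 (SE 0.14, adjusted p = 0.00769), and did so with library totals too. Its TMM call in ZXD versus CON was lost in 7 fits, those without CON 2, CON 4, CON 5, ZXD 1, ZXD 2, ZXD 3 or ZXD 5. The thyroid hormone receptor genes went opposite ways in HFD versus CON: Thra was at 0.86 (SE 0.22, adjusted p = 0.0132) and Thrb, the main receptor form in liver, at -0.65 (SE 0.19, adjusted p = 0.0289), a call lost without HFD 2, HFD 5 or any of CON 2 to CON 4. With library totals Thrb was at -0.24 (SE 0.16, adjusted p = 0.243). Ppargc1a averaged 14.9 ± 4.14 CPM in ZXD, 8.12 ± 3.49 in HFD and 7.2 ± 2.49 in CON livers, at 1.05 (SE 0.29, adjusted p = 0.0139) in ZXD versus CON and 0.87 (SE 0.29, adjusted p = 0.184) in ZXD versus HFD. Atpif1, the inhibitor of the ATP synthase, was at 0.55 (SE 0.23, adjusted p = 0.081) in ZXD versus CON and 0.34 (SE 0.23, adjusted p = 0.3) in HFD versus CON by TMM; the first passed without CON 3. With library totals Atpif1 rose, at 1.01 (SE 0.26, adjusted p = 0.00563) and 0.76 (SE 0.26, adjusted p = 0.0279). These values stand beside those of the chain members, and a link between them was not tested.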

How the data were processed

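Liver RNA of 15 libraries (5 per group) was measured; groups and replicate numbers come from the sample titles. The authors deposited 1 table with read counts, FPKM and gene length per gene and library. Per the submitters' processing notes edgeR was used, with no role or version named; the sources used here name no aligner, counter, build or annotation: these are not given. The deposited FPKM equal count per length and library total within 0.01% for 100.0% of values. Many chain genes have close copies elsewhere in the genome, and how reads shared with them were counted is not known. Coordinates come from RefSeq GRCr8, not from the table.

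Counts were tested with edgeR 4.0.16 (R 4.3.3; TMM, filterByExpr with minimum count 10 and total 15, robust quasi-likelihood, 12 residual degrees of freedom, Benjamini-Hochberg over 13163 genes); the code was checked on simulated data. SEs were derived from each fold change and its F statistic. Alternatives were other scalings, filters, DESeq2 1.42.0, limma 3.58.1 voom, the 10 compared libraries only, a replicate block and leaving out each library. Named genes are core subunits (1 member is not reported by name here), isoform pairs and Atpif1, up to 3 called members per class and direction by smallest p (5 members where none was called), and up to 3 such genes of each companion list. Members and lists were chosen with earlier results of these data known. Nothing says that libraries came from separate rats, so p-values measure the spread between these libraries. Intervals and floors cover counting error only.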

Additional observations from a re-analysis of the deposited data

Results flagged for a closer look

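Of 156 groups of 5 libraries checked for a member or class value far from its group (gap over range above 0.71), 9 had one; chance alone gives about 1 group in 20. ZXD 4 stood low for Cox4i1 (96.7 CPM), Ndufs3 (31.2 CPM), Ndufs7 (27.8 CPM) and Uqcrc1 (91.9 CPM). CON 1 stood low for Ndufa4 (128 CPM), Ndufaf5 (3.05 CPM) and Uqcrfs1 (135 CPM). HFD 5 stood low for Sdhd (68.7 CPM) and for the mean centred log2 CPM of the assembly factors (-0.16). In ZXD 4 the macrophage and Kupffer cell markers were the highest of all libraries, at 6137 CPM, and its TMM factor was the highest, at 1.28. The part of either in the low values was not tested.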

How the results depend on the processing

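Scaling and the choice of libraries both moved the counts. In HFD versus CON, 23 members were lower by TMM, 0 with library totals or with the members' summed counts as the scale, 3 with totals that left out the 50 most abundant genes and 11 with upper-quartile factors. On the same 4 scales 10, 5, 1 and 0 were higher. Leaving out 1 library gave 9 to 29 lower. In ZXD versus CON, 40 were lower by TMM, 4 with library totals, 5 on the members' own scale and 15 without the 50 most abundant genes, and 29 to 50 when 1 library was left out. The count higher, 1 by TMM, was 5 with library totals, 5 on the members' own scale and 0 to 1 when 1 library was left out. In ZXD versus HFD, DESeq2 called 1 lower member and every other alternative 0. With the short-gene difference as a covariate, added after seeing the data and partly confounded with group, 36 members were lower in HFD versus CON and 29 in ZXD versus CON. Fits of only the libraries below 0 on it, or only those above 0, were added likewise. They gave 0 and 35 lower in HFD versus CON, and 0 and 21 lower with 0 and 0 higher in ZXD versus CON; the side above 0 holds 1 ZXD library, assumed to vary like the other groups. The side below 0 holds CON 1, CON 4, HFD 1, HFD 4 and all ZXD libraries but ZXD 3. The side above 0 holds CON 2, CON 3, CON 5, HFD 2, HFD 3, HFD 5 and ZXD 3. The sides thus differ in libraries per group, and the split came from the expression values of the same libraries. The counts of the 2 sides therefore cannot show whether the short-gene difference matters. Shares of all tested genes called are not given for the covariate fit or the 2 sides. Their counts thus cannot be read as particular to the members. The cause of the changes in these counts was not tested.

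Among the genes followed by name across these settings, calls whose sign turned were small on the other scale. With library totals they were 0.042 for Timmdc1, 0.023 for Cyc1 and 0.034 for Mterf3 in HFD versus CON, and 0.011 for Ndufs7, 0.007 for Timmdc1 and 0.056 for Cyc1 in ZXD versus CON. On the members' own scale they were 0.0085 for Timmdc1 and 0.0038 for Mterf3 in HFD versus CON, and 0.0017 for Ndufs7 and 0.056 for Cyc1 in ZXD versus CON. Of all members called lower by TMM, followed by name or not, 1 of 23 in HFD versus CON was not below 0 with library totals. In ZXD versus CON this held for 4 of 40.

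Replicate numbers did not pair the libraries: over 15 pairs of libraries with the same number, the correlation of deviations was -0.547 to 0.26, with 4 over 0.1. A replicate block gave 16 lower members in HFD versus CON, 39 in ZXD versus CON and 0 in ZXD versus HFD. Low counts limited the 8 complex IV isoforms and Ndufs6, which could not be tested at this depth.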
